A study of Mus musculus with 6 samples.

Results

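Megakaryocytes are the large marrow and spleen cells that shed platelets, and 10 genes that mark them were followed here in irradiated mouse spleen: Pf4, Ppbp, Itga2b, Gp9, Gp1ba, Gp1bb, Gp5, Gp6, Clec1b and Tubb1. They were found as the array spots that carry these gene symbols, and they are 10 of 34797 distinct gene names on the array, with 14 probes. RNA of spleen from B10.BALB-16.C2A mice, which the series title calls congenic, was hybridised to one-colour arrays. The 3 unirradiated arrays came from resting mice given 0 cGy, and the 3 irradiated arrays from mice 24 h after 900 cGy of total body irradiation with X-rays. Each array held RNA pooled from 3 mice, so that the spread between arrays is a spread between pools, and age and sex of the mice are not given in the sources used here. RNA came from homogenised whole splenocytes and therefore mixes the cell types of that preparation.

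In the mouse the spleen makes blood cells throughout adult life, and megakaryocytes lie in its red pulp beside erythroid precursors. The spleen also stores circulating platelets, which carry messenger RNA left by the megakaryocyte but have no nucleus. The genes fall into 4 roles. Pf4 and Ppbp encode chemokines packed in the alpha granules that an activated platelet releases. Itga2b encodes the alpha chain of the fibrinogen receptor, and Gp1ba, Gp1bb, Gp9 and Gp5 encode the chains of the von Willebrand factor receptor, the GPIb-IX-V complex. Gp6 encodes the collagen receptor and Clec1b encodes CLEC-2, the receptor of podoplanin, and both signal through the kinase Syk. Tubb1 encodes the beta-tubulin isoform that forms the microtubule ring of the platelet.

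Clec1b was the gene of this group that rose most, and it was read by 3 probes that lie apart along the gene. The sequences of 2 of them are given because separate probes read Clec1b alike, though they share the same 6 arrays and are not replicates. Those of Itga2b and Gp1bb are given because the result of the first stood close to the threshold and the second was read by dim and bright probes. Each is the 60-base probe of the array, 5′ to 3′, with no letters in capitals.
Clec1b probe A_55_P1962010: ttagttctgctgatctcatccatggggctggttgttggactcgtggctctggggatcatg
Clec1b probe A_55_P1992617: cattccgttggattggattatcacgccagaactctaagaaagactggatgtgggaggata
Itga2b probe A_52_P459564: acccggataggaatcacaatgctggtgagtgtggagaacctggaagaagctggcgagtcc
Gp1bb probe A_51_P151576: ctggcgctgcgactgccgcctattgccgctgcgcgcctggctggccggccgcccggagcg
On mm9, the build of the files, the 3 Clec1b probes lie on the plus strand of chromosome 6 at chr6:129350113-129350172, chr6:129353604-129353663 and chr6:129355286-129355345. The Itga2b probe lies on the minus strand at chr11:102319453-102319661, where its 60 bases span 209 bases of the genome and so join more than 1 exon. The printed Gp1bb probe lies at chr16:18621107-18621166. The first 2 Clec1b probes and the Itga2b probe each have 2 reading frames without a stop codon, and the Gp1bb probe has 3.

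Levels are log2 signals over the 75th percentile of the array, so that 0 is the array's 75th percentile and 1 unit is a 2-fold difference. A level can be compared between arrays for 1 probe but not between probes, whose brightness differs by design. All 14 probes were well above background on all 6 arrays, so each had a measured value at both doses. The 75th percentiles were 1166, 1152 and 1403 on the unirradiated arrays and 1144, 1114 and 1182 on the irradiated ones, between 39033 and 41261 probes per array were well above background, and no spot was saturated. All 6 arrays lay on 1 slide, the unirradiated ones and irradiated replicate 1 in its first row. Markers of B cells, T cells and red pulp macrophages, which define spleen, were all well above background. A list of 10 exocrine pancreas genes, which do not belong to spleen, had a mean level of -4.73, 3.28 and 1.011 on the unirradiated arrays and of 6.68 to 7.07 on the irradiated ones, and its part in the results was not tested.

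At 24 h after 900 cGy, 4 of the 14 probes were higher and none was lower at an adjusted p under 0.05 (limma over all probes, Benjamini-Hochberg), and the 4 belong to 2 genes, Clec1b and Itga2b. An unadjusted p under 0.05 was reached by 5 of the 14. Across the array 26.4% of 39680 tested probes were called higher and 57.5% were called in either direction, so the count of 4 of 14 is near the background for higher calls. All 14 changes were above 0, with a median of 0.36 on the log2 scale, while the median of all tested probes was -0.08. Scaled to the spike-in RNAs in place of the 75th percentile, 8 of the 14 were above 0, the median was 0.07 and the median of all probes was -0.36. Without unirradiated replicate 3, 11 of the 14 were above 0 and their median was 0.17. In RNA of mixed cells, a change in the number of cells of a type and a change in RNA per cell cannot be told apart. On the same arrays 8 of 10 erythroid marker genes fell, and the median log2 change of that list was -6.37.

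**Figure D1:**
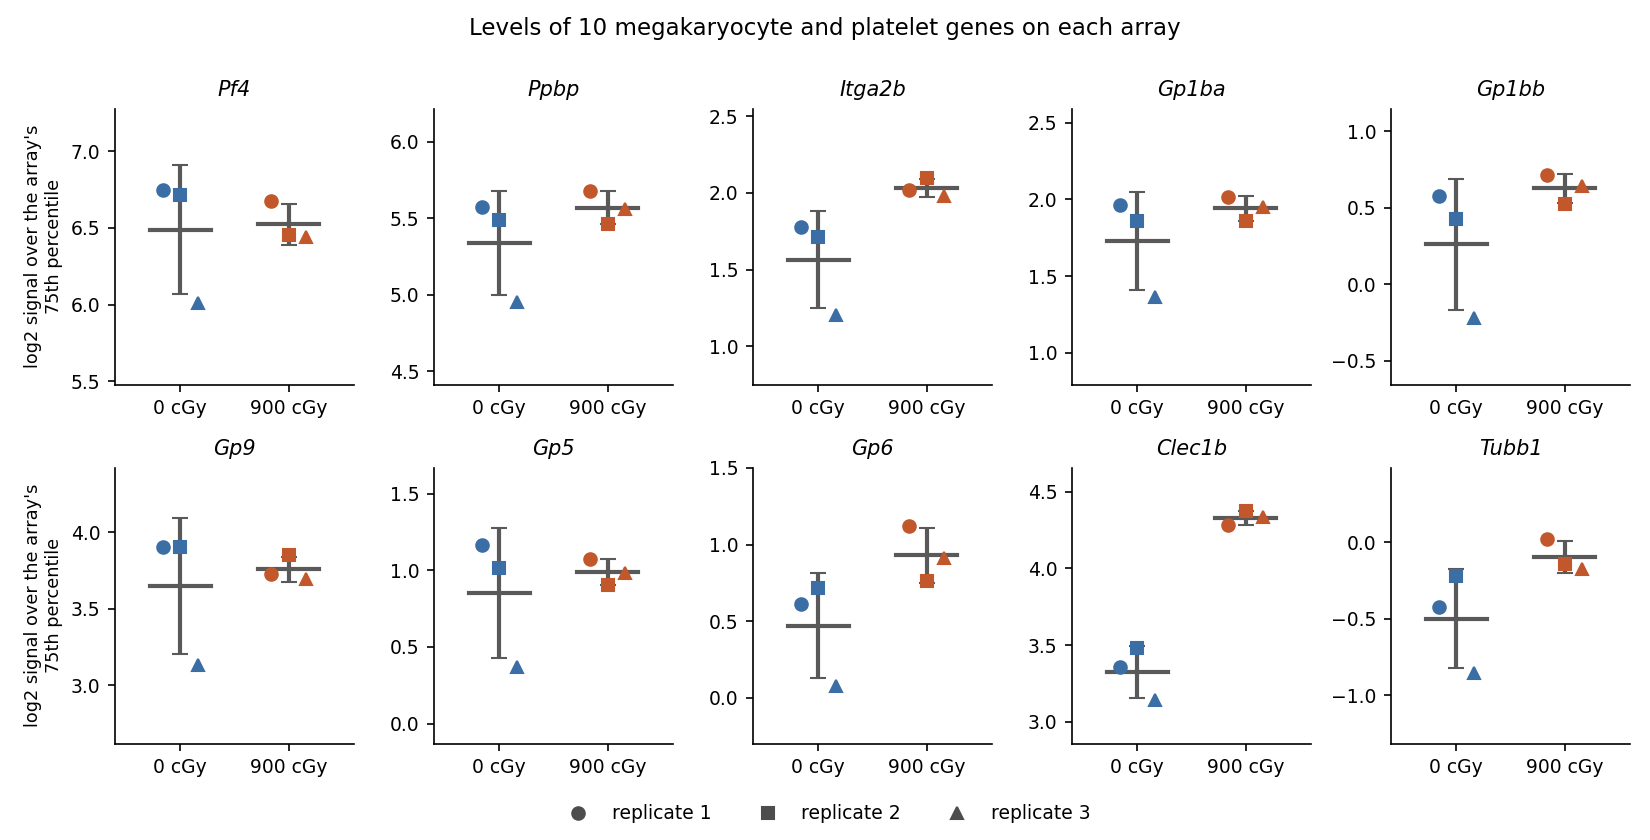
Each panel shows 1 gene by its brightest probe, as log2 signal over the array's 75th percentile (y axis, each spanning 1.8 units), at 0 and 900 cGy (x axis); points are arrays, the symbol gives the replicate number, and the bar and whisker are the mean ± SD of 3 arrays. Clec1b is the gene with the widest gap between doses, and unirradiated replicate 3 is the lowest array in every panel.

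Clec1b rose about 2-fold by every probe. The brightest probe, A_55_P1992617, gave log2 levels of 3.35, 3.48 and 3.14 on the unirradiated arrays and of 4.28, 4.37 and 4.34 on the irradiated ones. Every irradiated array was above every unirradiated one, and the gap between the groups was wider than the range inside either of them. The change was 1.007 ± 0.11 (SE, n = 3 pools per group; 95% interval 0.74 to 1.27), a 2.01-fold rise (limma adjusted p = 0.000455). Probe A_55_P1962010, toward the 5′ end, rose 1.95-fold, from 1.82 ± 0.16 to 2.79 ± 0.09 (SD, n = 3; adjusted p = 0.000583 by limma). Probe A_55_P1962011, toward the 3′ end, rose 2.09-fold, from 2.90 ± 0.21 to 3.97 ± 0.01 (SD, n = 3; adjusted p = 0.000521 by limma). The rises of the 3 probes lie within each other's 95% intervals. With spike-in scaling they were smaller, at 0.68 to 0.78 on the log2 scale, and each still passed. Within the first slide row, where 1 irradiated array is assumed to vary like the 3 unirradiated ones, the change of the brightest probe was 0.96 (limma adjusted p = 0.0278).

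The unscaled signal of the brightest Clec1b probe was 11923, 12846 and 12376 on the unirradiated arrays and 22263, 23067 and 23919 on the irradiated ones. Before any scaling, too, no array of 1 dose reached those of the other. CLEC-2 is also reported on some myeloid cells of the mouse, and all 10 marker genes of red pulp and marginal zone macrophages rose as well. Their mean level was 3.99 to 4.14 on the unirradiated and 5.98 to 6.09 on the irradiated arrays, with a median log2 change of 2.01. The part of these cells in the Clec1b change was not tested.

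Gp6, the second receptor that signals through Syk, gave levels of 0.61, 0.72 and 0.08 at 0 cGy and of 1.12, 0.76 and 0.91 at 900 cGy. The groups did not overlap, but the gap between unirradiated replicate 2 and irradiated replicate 2 was small. Its change of 0.46 ± 0.19 (SE; 95% interval 0.00 to 0.92) did not pass the test after adjustment (limma adjusted p = 0.0799), and without unirradiated replicate 3 the change was 0.27. No overlap between the groups was seen for 7 of the 14 probes, and for 65.7% of all tested probes.

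Itga2b was the only other gene called. The signal of its alpha-chain transcript was 1.78, 1.71 and 1.20 on the unirradiated and 2.02, 2.10 and 1.98 on the irradiated arrays. All irradiated arrays were above all unirradiated ones, but unirradiated replicate 3 was over 0.5 below the other pair. The change was 0.47 ± 0.17 (SE, n = 3; 95% interval 0.07 to 0.87), or 1.38-fold, at a limma adjusted p of 0.0473. This call was not stable: it passed under 11 of 19 alternatives, and the change was 0.18 with spike-in scaling (limma adjusted p = 0.444). Within the first slide row, with the same assumption, it was 0.46 (limma adjusted p = 0.266). Without unirradiated replicate 3 it was 0.288 and passed (limma adjusted p = 0.0268), and without unirradiated replicate 2 or any 1 irradiated array it did not pass (limma adjusted p = 0.0622 to 0.126). Itgb3, which encodes the beta chain that pairs with this integrin and was picked out here after its values were seen, had a change of 0.11 ± 0.18 (SE; limma adjusted p = 0.632).

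The 4 genes of the GPIb-IX-V complex were not called by any of their 6 probes. Gp1ba, whose product binds von Willebrand factor, gave 1.96, 1.86 and 1.37 at 0 cGy and 2.02, 1.86 and 1.95 at 900 cGy, and the groups overlapped (change 0.21 ± 0.17 SE; 95% fold interval 0.88 to 1.53). The disulphide-linked partner chain Gp1bb, by its brightest probe A_51_P151576, gave 0.58, 0.42 and -0.22 against 0.71, 0.52 and 0.64 (change 0.37 ± 0.21 SE; limma adjusted p = 0.184). Its dimmest probe, A_55_P2039876, with unscaled signals of 24.4 to 33.1, changed by 0.35. Probe A_55_P2039878, also dim, changed by 0.24, and neither passed. The 3 Gp1bb probes were thus alike in direction and in the outcome of this test. Under alternatives A_55_P2039878 differed: it changed by -0.05 with spike-in scaling and passed without unirradiated replicate 1 (limma adjusted p = 0.0377). Gp9, the IX chain needed to bring the complex to the surface, gave 3.90, 3.90 and 3.14 against 3.73, 3.85 and 3.70. Its change was 0.11 ± 0.22 (SE), with a 95% fold interval of 0.75 to 1.55. Gp5, a chain that thrombin cleaves, gave 1.17, 1.02 and 0.37 against 1.07, 0.91 and 0.98 (change 0.14 ± 0.21 SE). In both Gp9 and Gp5 the irradiated arrays lay inside the span of the unirradiated ones, and without unirradiated replicate 3 the changes were -0.15 and -0.11. These intervals leave room for a rise of up to 1.55-fold for Gp9 and 1.56-fold for Gp5.

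The 2 chemokine genes of the alpha granule neighbour each other on chromosome 5, with 3245 bases between their probes. Pf4 gave 6.75, 6.71 and 6.01 on the unirradiated and 6.68, 6.45 and 6.44 on the irradiated arrays. The irradiated arrays lay within the unirradiated span, and the change was 0.03 ± 0.21 (SE; 95% fold interval 0.72 to 1.46; limma adjusted p = 0.903). Without unirradiated replicate 3 the Pf4 change was -0.21 (limma adjusted p = 0.139), and with spike-in scaling it was -0.25 (limma adjusted p = 0.367). Ppbp gave 5.57, 5.49 and 4.95 against 5.68, 5.46 and 5.56, with a change of 0.23 ± 0.18 (SE; limma adjusted p = 0.31). Tubb1, the tubulin of the platelet ring, gave -0.42, -0.22 and -0.85 at 0 cGy and 0.02, -0.14 and -0.17 at 900 cGy. The Tubb1 groups did not overlap, but its change of 0.40 ± 0.17 (SE) did not pass (limma adjusted p = 0.0868).

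**Figure D2:**
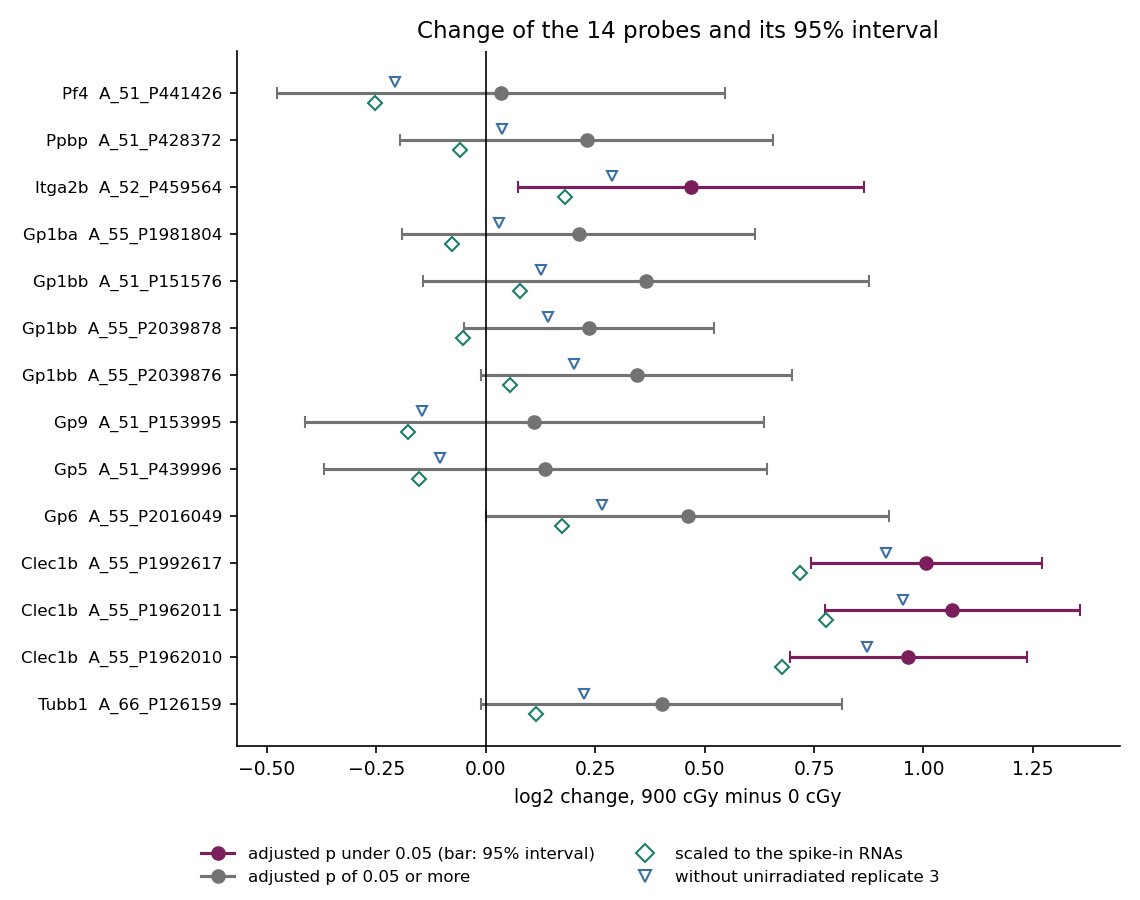
The x axis is the log2 change of each of the 14 probes (900 cGy minus 0 cGy), with filled points for the estimate, bars for its 95% interval and purple for an adjusted p under 0.05; diamonds are the change after spike-in scaling and triangles the change without unirradiated replicate 3. The 3 Clec1b probes lie between 0.97 and 1.07, apart from the other 11, whose changes reach from 0.03 to 0.47, and 6 of the diamonds lie below 0.

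Because 2 genes on 1 array share its scaling, the log2 ratio of Clec1b to another gene does not depend on how arrays are scaled. This comparison was made after the Clec1b values were seen. The ratio of Clec1b to Pf4 was -3.40, -3.23 and -2.87 on the unirradiated and -2.39, -2.08 and -2.10 on the irradiated arrays. Only its change between doses has a meaning, and it was 0.97 on the log2 scale. The ratio to Itga2b moved by 0.54, to Gp6 by 0.55, to Tubb1 by 0.60, to Gp1bb by 0.64, to Ppbp by 0.78, to Gp1ba by 0.80, to Gp5 by 0.87 and to Gp9 by 0.90. In each of the 9 ratios all irradiated arrays were above all unirradiated ones. That separation alone sets an exact two-sided permutation p of 3 against 3 arrays at 0.1, its lowest value (adjusted over the 9, also 0.1). The test therefore adds nothing to the separation. All 9 ratios share the Clec1b signal, and Clec1b was picked for its large rise, so they are no separate support. Relative to the mean of the other 9 genes, Clec1b went from 1.12 ± 0.22 to 1.86 ± 0.12 (SD, n = 3).

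**Figure D3:**
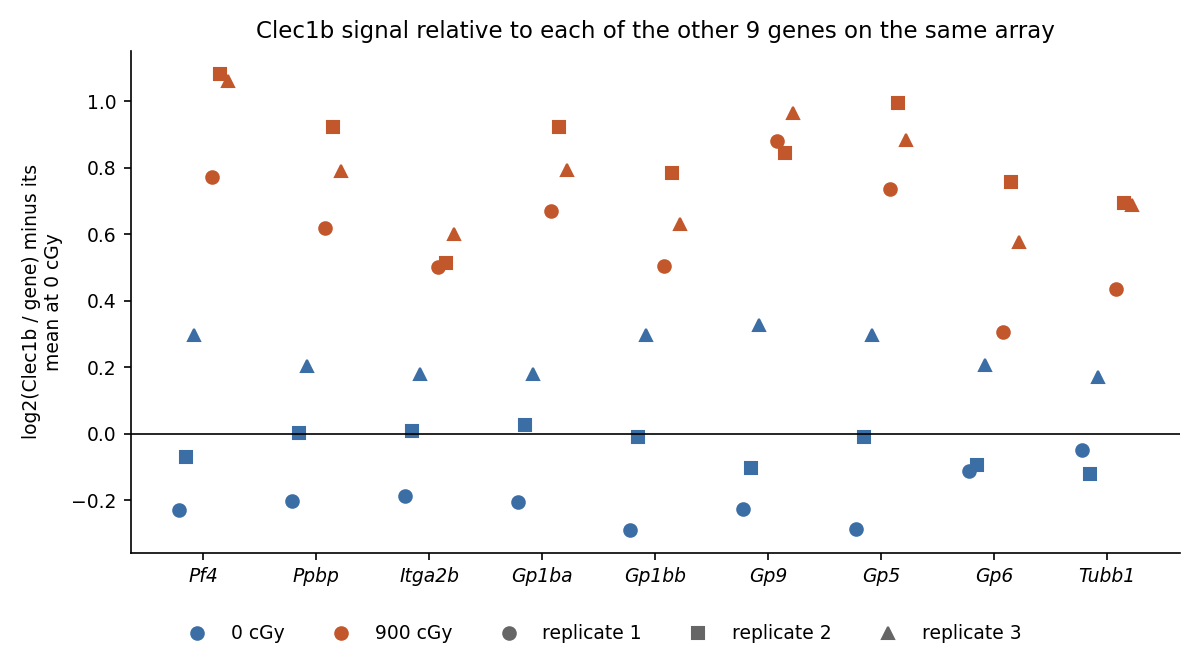
The y axis is the log2 ratio of the Clec1b signal to that of each other gene (x axis) on the same array, minus the mean of that ratio over the unirradiated arrays; blue points are 0 cGy, orange points 900 cGy, and the symbol is the replicate. Every orange point lies above every blue point of its gene, and unirradiated replicate 3 is the highest blue point for all 9.

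The genes varied together from array to array, and most of that variation was between the unirradiated pools. Unirradiated replicate 3 was below the mean of replicates 1 and 2 for all 14 probes, by a log2 difference of -0.77 for Gp9, -0.72 for Pf4, Gp5 and the brightest Gp1bb probe, and -0.28 for the brightest Clec1b probe. The same difference was at or below -0.5 for 10% of all tested probes, whose median was 0.01. It was below 0 for all 14 under spike-in scaling, median scaling and quantile normalization as well, and for 13 of 14 before scaling, where the 75th percentile of that array is the highest. For the brightest Clec1b probe, whose unscaled signals hardly differed between the unirradiated arrays, the whole of the -0.28 came with the scaling. The mean of the 10 genes, each centred on its own mean, was 0.04, 0.02 and -0.57 on the unirradiated arrays and 0.24, 0.13 and 0.14 on the irradiated ones. The residual SD of the 14 probes had a median of 0.24, against 0.16 over all probes, which widened the intervals of the members.

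Among the 45 pairs of genes, Pearson's r of the deviations from the group means over the 6 arrays was between 0.715 and 0.999 with a median of 0.92. The points share arrays and scaling, and unirradiated replicate 3 is the farthest of them, so these values are a description. Other lists moved with it: erythroid markers were lower on that array by -1.40 and neutrophil markers by -1.29, while macrophage markers differed by 0.10, B cell markers by 0.34 and T cell markers by 0.39. Mast cell and basophil markers differed there by -0.63, a mean that includes Ms4a2, which was well above background on no array. The exocrine pancreas list differed by 1.73. Its unirradiated levels were -4.73, 3.28 and 1.011, so replicate 3 lay between replicates 1 and 2. At 900 cGy the erythroid list was far below its unirradiated range, at -2.07 to -1.67 against 2.72 to 4.26. The megakaryocyte list lay at 2.61 to 2.73, against 1.92 to 2.53 at 0 cGy, but this separation rests on Clec1b and on the scaling. Without Clec1b, a comparison chosen after the data were seen, the list lay at 2.42 to 2.56 against 1.78 to 2.43 and the groups overlapped. With spike-in scaling the groups overlapped for all 10 genes too, at 1.23 to 1.55 against 0.91 to 1.69. The neutrophil list, at 4.28 to 4.58, lay inside its unirradiated range of 3.995 to 5.467. The part of these other cells in the spread of the megakaryocyte genes was not tested.

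**Figure D4:**
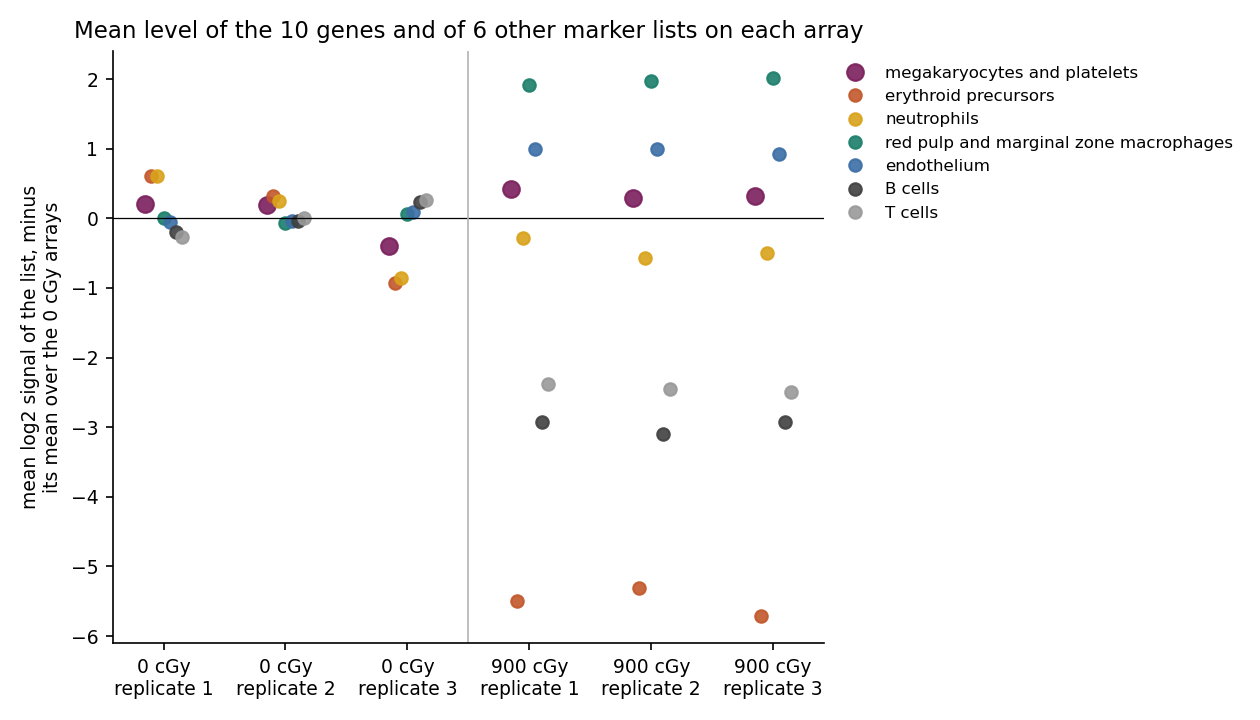
The y axis is the mean log2 signal of a marker list on 1 array, minus that list's mean over the 3 unirradiated arrays, and the x axis gives the 6 arrays. The megakaryocyte and platelet list is low together with the erythroid and neutrophil lists on unirradiated replicate 3. At 900 cGy it lies slightly above all its 0 cGy points, a separation that rests on Clec1b and on the scaling. The erythroid list falls by over 5 and the macrophage list lies near 2.

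Of 17767 named genes outside the 10, those whose levels over the 6 arrays were most like the mean of the members were Mmrn1 (Pearson's r = 0.994), Egln3, Vwf, Thbs1 and Rab3il1, with the lowest r at 0.992. Mmrn1, Vwf and Thbs1 encode adhesive proteins stored in alpha granules. Vwf is also on the endothelial marker list, and another probe of Vwf went the opposite way. Vwf gave 4.34, 4.35 and 3.77 at 0 cGy and 4.50, 4.36 and 4.38 at 900 cGy, and Thbs1 2.86, 2.88 and 1.98 against 3.29, 3.00 and 2.99. Both have the low unirradiated replicate 3 seen in the members, and neither passed the test. Without that array, r of the 5 genes was between 0.90 and 0.95 over 5 arrays. By deviations from the group means the most alike genes were Ssr1, H2al1e, BC055324, Ormdl2 and Vwf. Of these, H2al1e and BC055324 had r of -0.84 and -0.84 for their levels once unirradiated replicate 3 was left out. Here 1025 genes had an r of at least 0.95, against 119 by levels, so likeness of either kind is shared by many genes.

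Most transcription factors of the lineage fell. Of 13 measured by the brightest probe, 9 fell, 3 rose and 1 did not pass, with a median of -0.67. Over all genes by the same probe choice, 30.6% were called lower and 28% higher. With the slide row as a block only 4 of the 13 fell, so the majority was not kept in that fit. Over the array 9261 of 39680 probes were called lower with that block. The median of the 13 was -0.68 with the block and within the first row. Gata1, the factor that megakaryocyte and erythroid genes share, gave 4.79, 4.60 and 2.96 on the unirradiated and 2.15, 1.64 and 1.78 on the irradiated arrays, a change of -2.26 ± 0.48 (SE; limma adjusted p = 0.00707). Its cofactor Zfpm1, which encodes FOG1, fell by 1.97 and the repressor gene Gfi1b by 2.63 on the log2 scale. Within the first slide row, which holds 1 irradiated array, Gata1 and Gfi1b did not pass (limma adjusted p = 0.103 and 0.0729), and Gata1 did not pass with the row as a block either (limma adjusted p = 0.0719). These 3 factors are also expressed by erythroid precursors, whose list fell too, and the part of those cells was not tested. Meis1 and Gata2, which stem and progenitor cells express, rose by 1.265 and 1.097, and the ETS factor gene Etv6 by 0.94. Markers of stem and progenitor cells, a list that holds Meis1 and Gata2 too, had 5 genes higher and 2 lower, Kit (-1.16) and Flt3 (-0.66). Their mean was 0.57 to 0.69 at 0 cGy and 1.24 to 1.30 at 900 cGy, and the part of these cells was not tested.

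GATA and ETS factors are known regulators of megakaryocyte genes, and the 250 bases before the start of each gene were searched for GATA and ETS motifs. The promoter table of RefSeq (GRCm38.p6, a build other than that of the array files) held all 10. The GATA motif was GATA with A or T before it and A or G after it, and the ETS motif was GGAAG with A or C before it, each on either strand. A GATA match was found in 5 of the 10, against 26.5% of 32851 promoters, and an ETS match in 7, against 39.2%. Gp1ba, Gp1bb and Gp5 held both, as did 9.21% of all promoters. The promoters below are those of the 2 called genes and of 2 uncalled genes of the complex, with capitals on each match.
Clec1b promoter, chr6:129397047-129397296 (plus strand): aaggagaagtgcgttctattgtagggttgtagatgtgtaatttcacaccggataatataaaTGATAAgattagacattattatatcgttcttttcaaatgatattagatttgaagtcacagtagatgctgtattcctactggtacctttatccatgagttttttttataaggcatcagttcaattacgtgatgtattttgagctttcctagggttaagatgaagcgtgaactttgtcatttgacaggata
Itga2b promoter, chr11:102469884-102470133 (minus strand): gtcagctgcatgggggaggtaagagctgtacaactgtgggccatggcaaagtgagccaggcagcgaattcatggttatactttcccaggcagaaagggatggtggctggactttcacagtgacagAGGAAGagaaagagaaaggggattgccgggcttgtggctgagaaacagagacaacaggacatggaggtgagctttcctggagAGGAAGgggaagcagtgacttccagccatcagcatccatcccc
Gp1ba promoter, chr11:70638872-70639121 (plus strand): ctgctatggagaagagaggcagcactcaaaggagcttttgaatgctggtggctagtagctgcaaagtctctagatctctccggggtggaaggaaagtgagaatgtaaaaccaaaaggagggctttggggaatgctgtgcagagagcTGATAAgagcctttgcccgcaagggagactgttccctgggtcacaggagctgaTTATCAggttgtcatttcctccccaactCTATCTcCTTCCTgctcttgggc
Gp5 promoter, chr16:30310782-30311031 (minus strand): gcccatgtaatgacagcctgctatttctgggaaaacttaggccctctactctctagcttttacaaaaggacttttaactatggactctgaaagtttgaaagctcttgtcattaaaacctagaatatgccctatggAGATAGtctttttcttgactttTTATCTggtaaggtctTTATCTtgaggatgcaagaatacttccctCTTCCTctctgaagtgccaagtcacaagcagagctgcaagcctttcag
In this window Clec1b has 1 GATA match and Itga2b has 2 ETS matches, while the uncalled Gp1ba and Gp5 have 3 GATA matches and 1 ETS match each. A match is a description of letters and no evidence of binding, and short motifs such as these occur in many promoters.

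Thrombopoietin is the hormone that drives megakaryocyte growth, and it signals through the kinase Jak2 and the STAT5 proteins. Of 8 genes of this pathway 1 rose, 1 fell and 6 did not pass, and with spike-in scaling 1 rose and 3 fell. Among all genes 28% were called higher and 30.6% lower by the same probe choice, before spike-in scaling. With spike-in scaling 6841 of 39680 probes over the array were called higher and 17253 lower. Thpo, the hormone gene, was dim and changed by -0.04 ± 0.21 (SE). Socs1, an inhibitor of cytokine signalling that many cells express, rose by 1.199, and Stat5a fell by 0.76 on the log2 scale. Jak2 (-0.23), Stat5b (-0.00), the adaptor gene Sh2b3 (-0.32) and the kinase gene Lyn (0.30) did not pass. With spike-in scaling Jak2 (-0.52, limma adjusted p = 0.0121) and Sh2b3 (-0.61, limma adjusted p = 0.0144) passed. Jak2 passed under 7 of 19 alternatives and Sh2b3 under 2. Sh2b3 and Jak2 also passed without unirradiated replicate 1, and Lyn without unirradiated replicate 3 (0.42, limma adjusted p = 0.012).

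Adhesion genes and receptor genes were called higher where they were called at all. The shares over all genes by the same probe choice were 28% higher and 30.6% lower. Under spike-in scaling, 17.2% of all tested probes were called higher. Of 12 integrin and adhesion genes 7 rose and none fell (median 0.46). With spike-in scaling 3 rose and none fell. Jam3 rose by 1.28, Esam by 1.19 and Cd36, a receptor of thrombospondin and fatty acids, by 0.76 on the log2 scale. Esam and Jam3 are junction molecules that endothelium also expresses, and 5 of 7 endothelial markers rose, from a mean of 0.996 to 1.138 to one of 1.972 to 2.048. Of 13 genes for agonist and inhibitory receptors 9 rose and none fell (median 0.57), or 4 and none with spike-in scaling. Fcer1g, the signalling chain that partners Gp6 and is abundant in myeloid cells, rose by 1.31, from 5.45 ± 0.19 to 6.76 ± 0.03 (SD, n = 3). P2ry12, the receptor of ADP that clopidogrel blocks, rose by 1.21, and F2r, which encodes a thrombin receptor, by 1.06. The related receptor genes F2rl3 and F2rl2 changed by 0.75 and -0.13, and F2rl2 did not pass. The macrophage and endothelial lists rose beside these genes, and their part was not tested.

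The signalling genes below Gp6 and Clec1b moved in both directions. So did genes over the whole array, of which 28% were called higher and 30.6% lower by the same probe choice. Of 15, 4 rose, 6 fell and 5 did not pass (median -0.02), and with spike-in scaling 1 rose and 7 fell. With that scaling 17253 of 39680 probes over the array were called lower and 6841 higher, so lower calls were the more frequent there too. The adaptor gene Lat fell by 1.499 and the kinase gene Btk by 0.95 on the log2 scale, while the adaptor gene Lcp2, which encodes SLP-76, rose by 1.21. Lat is also expressed by T cells and Btk by B cells, and all 6 T cell and all 7 B cell markers fell. The part of these cells in the changes of Lat and Btk was not tested. Of 14 granule genes 4 rose, near the 28% over all genes, 1 fell and 9 did not pass (median 0.27). With spike-in scaling 2 rose and 2 fell. Without unirradiated replicate 3 the median was 0.08, and 4 rose and 2 fell. Gas6, a ligand of the TAM receptors, rose by 2.29 and Serpine2, an inhibitor of thrombin, by 1.45, while Vps33b, needed to form alpha granules, fell by 0.76 on the log2 scale. Vps33b did not pass within the first slide row (limma adjusted p = 0.0651).

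Of the 4 eicosanoid enzymes 3 rose, where 28% of all genes were called higher and 30.6% lower by the same probe choice. Ptgs1, the cyclooxygenase that aspirin blocks in platelets, gave 3.16, 3.13 and 3.07 at 0 cGy and 4.77, 4.83 and 4.83 at 900 cGy (change 1.70 ± 0.08 SE; limma adjusted p = 6.47e-05). Pla2g4a, which frees arachidonic acid, rose by 1.58, and the thromboxane synthase gene Tbxas1 by 1.29, while another probe of Tbxas1 went the opposite way. The platelet lipoxygenase gene Alox12 gave 3.14, 3.13 and 2.48 against 3.56, 3.34 and 3.33 and did not pass (limma adjusted p = 0.0711). Some of these enzymes are also made by macrophages, whose 10 markers all rose, and the part of those cells was not tested. Of these 4 genes Alox12 alone was at least 0.5 lower on unirradiated replicate 3 than on both other unirradiated arrays. Of 11 cytoskeletal genes 6 rose, 2 fell and 3 did not pass (median 0.27). With spike-in scaling their median was -0.02, and 5 rose and 2 fell. Over the array that scaling called 6841 of 39680 probes higher and 17253 lower. Mylk, the myosin light chain kinase, rose by 1.46, the actin-severing gelsolin gene Gsn by 1.11 and Actn1 by 1.07 on the log2 scale.

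Over the 90 companion genes measured, 37 rose, 19 fell and 34 did not pass, at a median of 0.26. The shares over all genes were 28% higher and 30.6% lower. With spike-in scaling 22 rose and 23 fell; higher genes then made up 48.9% of the calls, against 66.1% before. Over all probes the same scaling took the higher share of the calls from 46% to 28.4%. Many of the companion genes are expressed in other spleen cells too, and the part of those cells was not tested. How far the 10 members are restricted to the megakaryocyte lineage was not measured here.

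**Figure D5:**
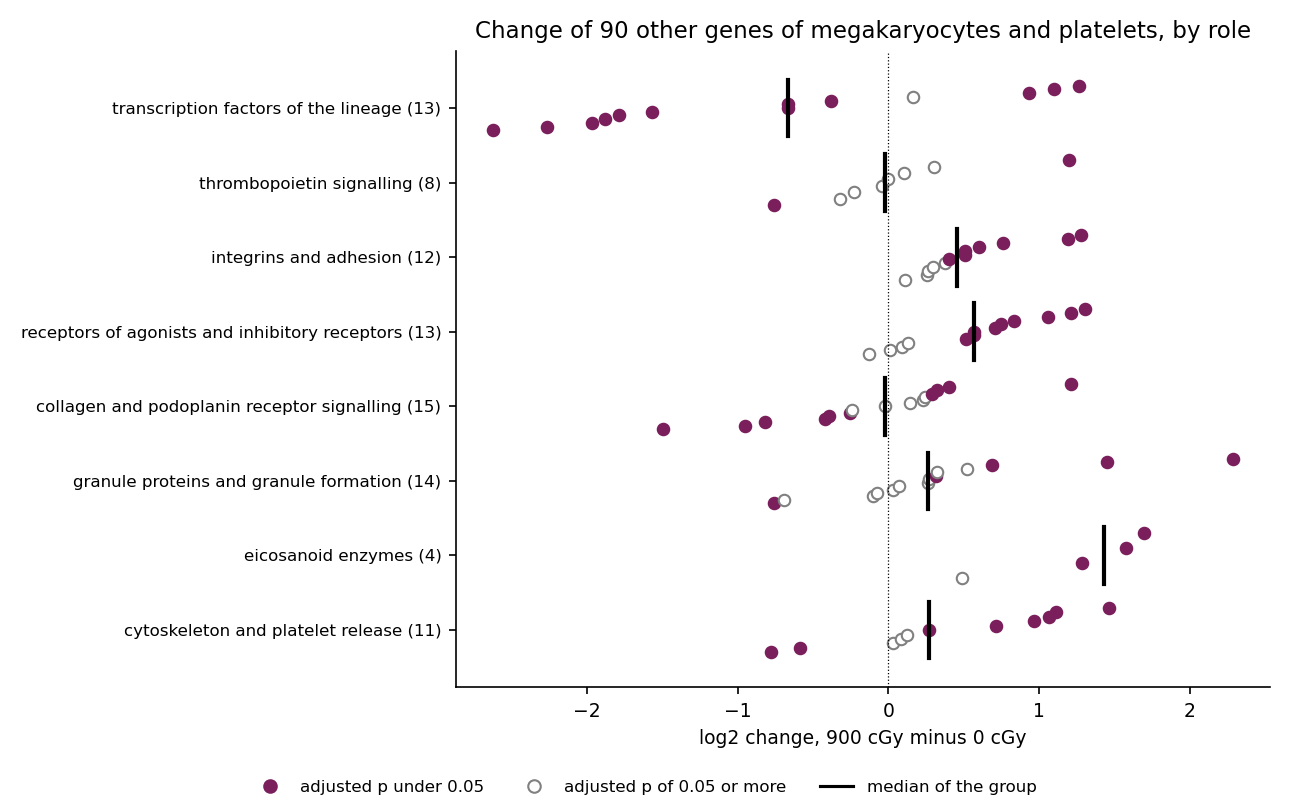
Each point is 1 of 90 companion genes, placed by its log2 change (900 cGy minus 0 cGy, x axis) and its role (y axis, number of genes in parentheses); filled points had an adjusted p under 0.05 and the vertical line is the median of the role. The lineage's transcription factors reach to -2.63, while no adhesion or receptor gene was called lower and only F2rl2 among them lies below 0 (-0.13).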

How the data were processed

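Arrays were grouped and numbered by their titles. The deposited files hold the processed intensity of 62976 spots per array, made with Agilent Feature Extraction 10.5.1.1 per the submitters' processing notes; per the file headers it was background-subtracted within each array and arrays were not scaled to each other. The authors' deposited table holds log2 values centred per probe and served as an alternative.

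Here the log2 intensity was reduced by that of the array's 75th percentile over 59305 non-control spots, outlier spots were dropped, and replicate spots were averaged. The 39680 probes well above background on all 3 arrays of a group were tested with limma 3.58.1 in R 4.3.3 (lmFit and eBayes, two-sided; adjusted by Benjamini-Hochberg over all probes, threshold 0.05). With 3 arrays per dose, their number limits the precision. Companion genes, marker lists and genes most like the members were counted by each gene's brightest probe. In each role the 3 called companion genes with the largest change are named, and all genes of a role where 3 or fewer were called; 1 result that this rule took is not reported here. The 10 genes, the lists and the tests were chosen with earlier results of these data known. Replicate numbers are not said to pair the arrays, so a replicate block was run only as an alternative. Other scalings, background corrections, filters, the slide row and leaving out each array were tried.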

Additional observations from a re-analysis of the deposited data

How the results depend on the processing

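The rise of Clec1b passed under every alternative run for each of its 3 probes, the brightest giving log2 changes of 0.72 to 1.08 at limma adjusted p between 3.65e-05 and 0.0278. No alternative called a member lower. With spike-in scaling the median over the member probes was 0.067, Itga2b changed by 0.181, 22 companion genes and 6841 probes were called higher, and these uncalled changes turned negative: Pf4 -0.254, Ppbp -0.059, Gp1ba -0.077, Gp1bb probe A_55_P2039878 -0.052, Gp9 -0.178, Gp5 -0.152, Itgb3 -0.18, Mmrn1 -0.019, Vwf -0.025 and Ormdl2 -0.051. Other changes near 0 that turned sign were those of Stat5b (0.012 with the 75th percentile over probes well above background on all arrays; 0.036 with the slide row as a block and in row 1 alone) and Thpo (0.065 with normexp background correction and 0.036 with normexp and quantile normalization). Itga2b did not pass when dim probes were kept (0.469), or with the slide row as a block or within row 1 (0.458 each; limma adjusted p = 0.194 and 0.266). Counted by 1 probe per gene, 2 members were higher. The row block left 11 companion genes lower; row 1 alone, with 1 irradiated array assumed to vary like the others, left 24 higher and 7 lower, and 6043 probes higher and 5967 lower. The median over the member probes without those of Clec1b, chosen after the data were seen, was 0.236. The cause of these differences was not tested.

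Leaving out 1 array at a time gave a median over the member probes of 0.172 to 0.437 and changes of -0.207 to 0.164 for Pf4, 0.036 to 0.346 for Ppbp, 0.03 to 0.329 for Gp1ba, 0.125 to 0.526 for Gp1bb probe A_51_P151576, 0.201 to 0.433 for A_55_P2039876, 0.266 to 0.585 for Gp6, 0.288 to 0.577 for Itga2b, 0.143 to 0.335 for Gp1bb probe A_55_P2039878, -0.145 to 0.239 for Gp9, -0.105 to 0.295 for Gp5, 0.225 to 0.541 for Tubb1, -0.216 to 0.129 for Thpo, -0.026 to 0.019 for Stat5b and -0.075 to 0.257 for Itgb3. Itga2b did not pass without unirradiated replicate 2 or without any 1 irradiated array (limma adjusted p = 0.0622 to 0.126), the Gp1bb probe passed without unirradiated replicate 1 (limma adjusted p = 0.0377) and Tubb1 without unirradiated replicate 2 (limma adjusted p = 0.0408).

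Replicate numbers are not said to pair the arrays. The deviations of arrays of the same number correlated at 0.07, 0.108 and -0.008. With 3 pools per group this cannot decide whether pools were matched. With the replicate block 4 member probes, 33 companion genes higher and 17 lower were called. Each mean rests on 3 pools, so changes well under 1.5-fold in members with a residual SD like that of Gp9 or Pf4 could not be told from 0.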
